A study of Homo sapiens with 16 samples.

Results

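The genes described here are 31 targets of the tumour suppressor p53, a named list mapped by Ensembl identifier onto the 57500 genes of each count table; all 31 were found. They were sorted by role into 6 arrest targets, 5 repair targets, 10 death and survival targets, 4 feedback targets and 6 metabolic and secreted targets. Gene counts came from bulk RNA sequencing of NCI-H929, an established line of human multiple myeloma cells, in 16 libraries. Of these, 4 came from cells given p300 degrader 27, a small molecule that directs the p300 protein to breakdown, at 3 nM for 6 h, and 4 from cells given DMSO, its vehicle. The other 8 were 4 libraries named p300 KO and 4 named NTC. The labels do not say how the knockout was made, whether it is a clone or a pool, or what NTC stands for. Nor do they say that replicates were grown separately; a p-value then covers the spread between libraries alone, which can be technical. All 16 libraries carry the same batch label, 1.

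p53 is a transcription factor that is stabilised by DNA damage and other stress and binds a response element near its targets. Its targets slow the cell cycle, repair DNA, promote or restrain cell death, alter metabolism and, through MDM2, end the response by degrading p53 itself. The acetyltransferase p300, encoded by EP300, and its paralogue CBP, encoded by CREBBP, acetylate p53 and histones near its targets and act as its coactivators.

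The 16 libraries held 12.6 M to 23.1 M counts each (M, 1e6). Degrader 2 and p300 KO 1 stood apart. Genes of the mitochondrial genome took 64.9% of the counts in degrader 2, against 5.99 to 6.96% in the other 3 degrader libraries and 18.03 ± 4.47% in DMSO (SD, n = 4). In p300 KO 1 the share was 47.7%, against 10.2 to 11.4% in the other 3 KO libraries and 9.62 ± 0.558% in NTC (SD, n = 4). That left 4.42 M other counts in degrader 2 and 8.66 M in p300 KO 1, so the comparisons of the targets are given with and without them. EP300 transcript stood at 50.2, 38.1, 34.0 and 37.4 CPM in p300 KO 1 to 4 and at 100.0, 92.5, 91.0 and 94.6 CPM in NTC 1 to 4, lower in each KO library but not absent. CPM is counts per 1e6 counts, scaled here within a comparison by the trimmed mean of M-values (TMM). All 8 plasma cell markers had counts in every group. Their summed levels per library, TMM-scaled, were 7483 to 14326 CPM with the degrader and 10189 to 13292 CPM in DMSO. They were 11625 to 12467 CPM in the KO and 12001 to 12242 CPM in NTC. RNA of 5 T cell markers summed to 12.7 to 24.8 CPM with the degrader and 36.2 to 40.2 CPM in DMSO, with CD3D at 0 in both groups and CD3G at 0 in DMSO. In the KO the same list summed to 34.4 to 37.1 CPM, against 44.4 to 49.8 CPM in NTC, and none of the 5 was at 0 in either group. In every group 3 of these 5 markers had a mean under 1 CPM. CD3E alone stood at 10.4 to 22.5 CPM with the degrader and 35.4 to 39.1 CPM in DMSO, most of those sums. The 4 NK cell markers summed to 1.57 to 2.60 CPM with the degrader and 3.57 to 4.06 CPM in DMSO, with NCR1 at 0. The 5 monocyte markers summed to 1.89 to 4.16 CPM with the degrader against 2.79 to 4.32 CPM in DMSO, with FCN1 at 0, and to 7.81 to 10.7 CPM in the KO against 10.1 to 14.2 CPM in NTC. The 5 earlier B cell markers summed to 15.4 to 27.7 CPM in the KO against 24.2 to 28.04 CPM in NTC, and to 7.55 to 28.4 CPM with the degrader against 9.003 to 12.0 CPM in DMSO, and none was at 0. The 4 NK cell markers summed to 19.5 to 39.9 CPM in the KO and 31.7 to 34.2 CPM in NTC. The levels of these lists moved with the groups or varied within them, and their part in the results was not tested.

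Promoter sequences were available for 23 of the 31 genes and are shown because the p53 response element is the known link between these genes and p53. In each, the 250 bases before and 50 bases after an annotated start (RefSeq, GRCh38.p14) were searched on both strands for the p53 element, here 20 bases made of a pair of repeats with no spacer. The C and G at the core of each repeat had to match, and up to 3 other positions could differ from the consensus. A match was found in 7 of the 23 genes (30.4%), FAS, DDB2, MDM2, RPS27L, AEN, FDXR and GDF15, and in 373 of all 27305 genes with a promoter (1.37%). The cyclic AMP response element TGACGTCA, searched as a second motif, occurred in PPM1D alone among the 23 and in 1.85% of all promoters. No promoter of the 23 held both motifs. A match in letters is a description and not a measured binding site, and a promoter without one may hold elements elsewhere.

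The first sequences are those of BTG2 (chr1:203305269-203305568, plus strand) and PLK2 (chr5:58460037-58460336, minus strand), arrest targets whose response differed between the experiments. Neither holds a match in this window. They are followed by FDXR (chr17:74872945-74873244, minus strand) and DDB2 (chr11:47214724-47215023, plus strand), which rose in the KO. Each is written 5′ to 3′, with the match to the p53 element in capitals.
BTG2: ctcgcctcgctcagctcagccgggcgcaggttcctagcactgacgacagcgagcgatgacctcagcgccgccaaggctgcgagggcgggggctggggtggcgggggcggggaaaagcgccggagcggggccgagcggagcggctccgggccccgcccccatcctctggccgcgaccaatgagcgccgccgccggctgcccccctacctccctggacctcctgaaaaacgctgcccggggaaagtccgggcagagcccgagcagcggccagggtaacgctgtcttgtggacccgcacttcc
PLK2: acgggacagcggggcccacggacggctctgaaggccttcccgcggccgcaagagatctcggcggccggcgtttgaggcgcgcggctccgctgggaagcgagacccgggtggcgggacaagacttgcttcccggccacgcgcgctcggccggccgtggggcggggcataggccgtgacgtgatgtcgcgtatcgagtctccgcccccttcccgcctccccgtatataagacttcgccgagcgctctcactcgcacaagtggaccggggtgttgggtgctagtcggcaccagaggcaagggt
FDXR: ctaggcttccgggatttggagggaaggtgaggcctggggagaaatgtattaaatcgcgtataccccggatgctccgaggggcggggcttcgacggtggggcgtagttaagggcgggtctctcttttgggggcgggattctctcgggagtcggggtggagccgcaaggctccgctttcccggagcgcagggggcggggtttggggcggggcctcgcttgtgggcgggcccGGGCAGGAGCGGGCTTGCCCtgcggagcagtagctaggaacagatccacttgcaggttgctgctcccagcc
DDB2: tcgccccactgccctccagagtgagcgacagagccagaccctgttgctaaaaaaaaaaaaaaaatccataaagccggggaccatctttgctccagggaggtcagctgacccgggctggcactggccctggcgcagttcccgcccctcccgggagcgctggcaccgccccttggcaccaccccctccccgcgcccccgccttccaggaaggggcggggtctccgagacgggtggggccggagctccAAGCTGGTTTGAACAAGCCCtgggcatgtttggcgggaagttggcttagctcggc

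The elements alone are given for the other 5 genes, in capitals throughout. They lie at chr10:88991309-88991328 (FAS, plus strand), chr12:68808923-68808942 (MDM2, plus strand), chr15:63157527-63157546 (RPS27L, minus strand), chr15:88621306-88621325 (AEN, plus strand) and chr19:18386186-18386205 (GDF15, plus strand).
FAS: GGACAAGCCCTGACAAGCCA
MDM2: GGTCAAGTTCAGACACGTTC
RPS27L: GGCCTAGAGCAGACAAGCCC
AEN: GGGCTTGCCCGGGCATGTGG
GDF15: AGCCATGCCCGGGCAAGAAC
The DDB2 element differs from the consensus at 1 position, those of FAS, MDM2 and AEN at 2 and those of RPS27L, FDXR and GDF15 at 3.

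With all libraries 2 p53 targets were called with the degrader and 8 in the KO, and in each experiment some were higher and some lower. With the degrader, 28 of the 31 had enough counts for the test, all but SPATA18, GDF15 and CMBL. XPC was called higher and BTG2 lower, and 26 were not called (quasi-likelihood test of edgeR, with p adjusted by Benjamini-Hochberg over all genes and a threshold of 0.05). Across all 15872 genes tested, 4.76% were called, 1.64% higher and 3.12% lower. The median log2 fold change was 0.13 over the 28 targets and 0.05 over all genes. Without degrader 2, 8 targets were called higher and 3 lower, when 38.5% of all genes were called, 18.2% higher and 20.3% lower, and the medians were 0.05 and −0.04. The share of targets called, 11 of 28, or 39.3%, was thus near that of all genes.

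In the KO, 29 of the 31 were tested, all but SPATA18 and GDF15. BTG2, DDB2, POLK, FBXO22 and FDXR were called higher, PLK2, AEN and CMBL lower, and 21 were not called. Of all 17350 genes tested, 17.0% were called, 6.23% higher and 10.7% lower, and the median log2 fold change was 0.20 over the targets and 0.02 over all genes. Without p300 KO 1, 14 targets were called higher and 3 lower of 30 tested, when 40.9% of all genes were called, 19.1% higher and 21.8% lower. The targets' median was then 0.16. The share of targets called in the KO was 27.6% with all libraries and 56.7% without p300 KO 1. The 5 targets called higher in the KO all lost their call under scaling by total counts. Of those called lower, AEN lost its call and PLK2 and CMBL kept theirs. A lower level in a bulk library can mean less RNA per cell or fewer cells that make it, and these cannot be told apart. Every change is relative to the other genes of a library, and scaling by total counts alone moved the median of all genes by −0.14 with the degrader and by −0.16 in the KO.

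**Figure D1:**
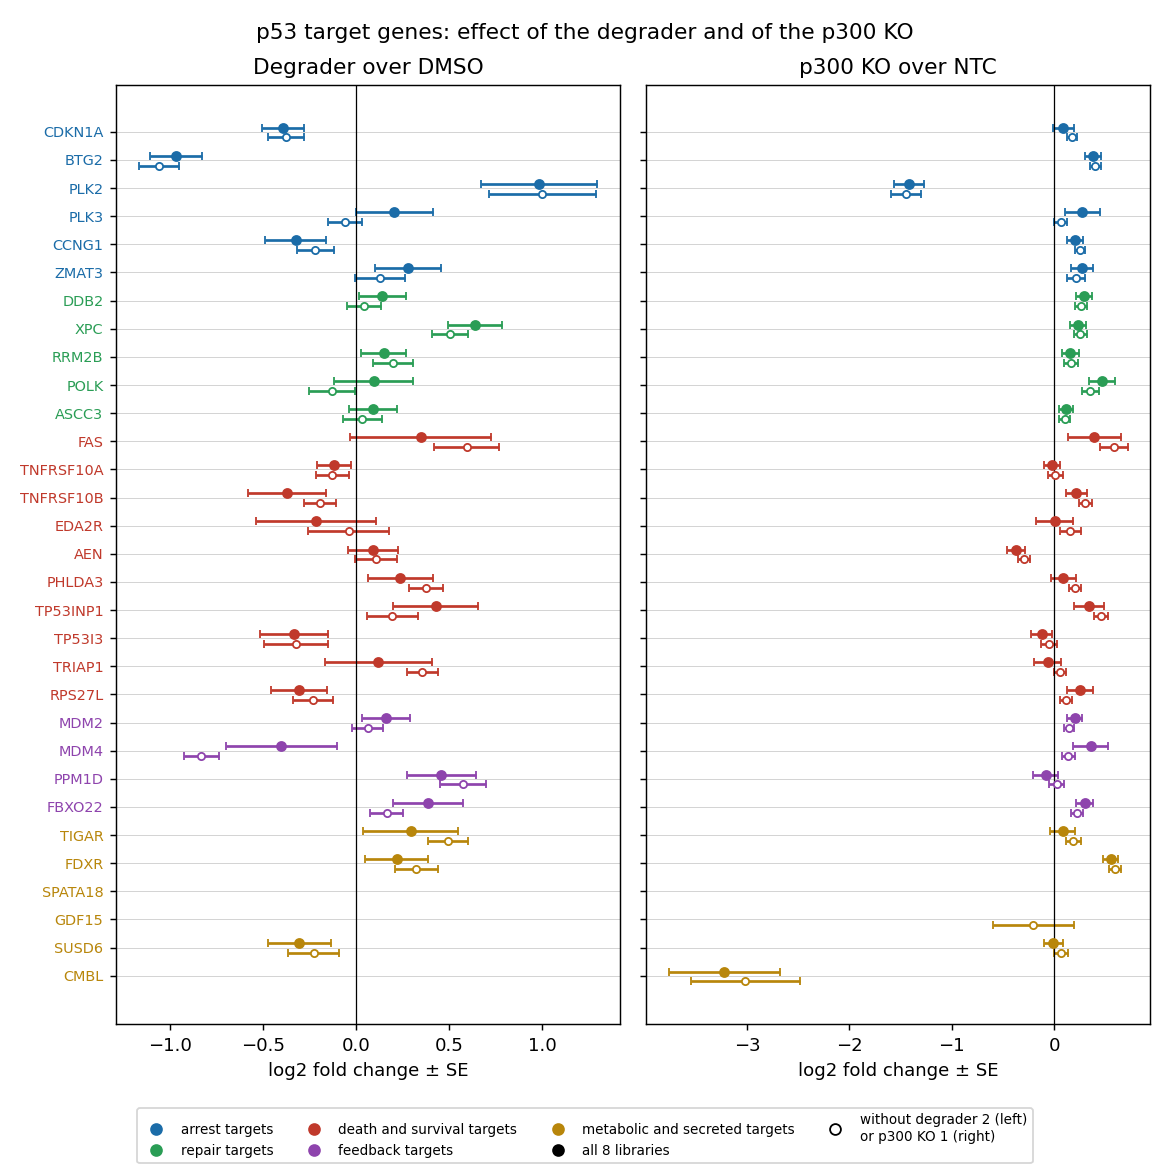
Log2 fold changes of the p53 targets (x axis) with the degrader over DMSO (left) and in the p300 KO over NTC (right), 1 gene per line, coloured by role; bars are ± SE. Filled points use all 8 libraries and open points leave out degrader 2 or p300 KO 1. BTG2 lies at −0.97 on the left and 0.38 on the right, and PLK2 at 0.99 and −1.42. Genes without a point were not tested.

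The 2 targets whose response differed between the experiments with all libraries, BTG2 and PLK2, are arrest targets. BTG2 (ENSG00000159388), an antiproliferative factor that speeds mRNA decay, is a plus-strand gene of chromosome 1, at 203305491 to 203309602 in GRCh38. It had 68.9, 77.8, 66.5 and 53.4 CPM in degrader 1 to 4, against 140.2, 134, 115 and 133 CPM in DMSO 1 to 4. Each degrader library lay below each DMSO library, and BTG2 fell (log2 fold change −0.97 ± 0.14 SE, adjusted p = 0.00716; −1.06 without degrader 2, adjusted p = 6.88e-06). In the second experiment BTG2 had 283, 301, 285 and 319 CPM in p300 KO 1 to 4, against 243, 243, 215 and 209.6 CPM in NTC 1 to 4. Here each KO library lay above each NTC library, and BTG2 rose (0.38 ± 0.08, adjusted p = 0.0110; 0.40 without p300 KO 1, adjusted p = 3.54e-08). The call with the degrader was lost under scaling by total counts (−1.15, adjusted p = 0.112), and that in the KO likewise (0.22, adjusted p = 0.615). Both calls were also lost with the replicate number as a block. The KO call was lost too with no filter on low counts and in the fit on all 16 libraries.

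PLK2, a polo-like kinase that p53 induces after damage, is annotated at 58453982 to 58460260 of chromosome 5, minus strand (ENSG00000145632) and moved the other way. Its levels were low, at 2.18, 2.08, 2.46 and 1.90 CPM in degrader 1 to 4, against 0.973, 1.01, 1.76 and 0.636 CPM in DMSO 1 to 4. Every degrader library was above every DMSO library, but DMSO 3 came near them. With all libraries of the comparison edgeR did not call the difference (0.99 ± 0.31, adjusted p = 0.115), and without degrader 2 it did (1.00, adjusted p = 0.0137). DESeq2 and the edgeR fit on all 16 libraries called it with degrader 2 kept (adjusted p from 0.0128 to 0.0326). In the KO experiment PLK2 had 2.81, 2.85, 2.04 and 2.77 CPM in p300 KO 1 to 4, against 6.92, 7.31, 7.57 and 6.00 CPM in NTC 1 to 4. All KO libraries lay far below all NTC libraries, and PLK2 fell (−1.42 ± 0.15, adjusted p = 4.43e-04), as it did without p300 KO 1 (−1.45, adjusted p = 2.20e-11) and under scaling by total counts (−1.58, adjusted p = 8.43e-04).

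CDKN1A encodes p21, the inhibitor of cyclin-dependent kinases through which p53 arrests the cycle, and is annotated at 36676460 to 36687339 of chromosome 6, plus strand (ENSG00000124762). It had 67.4, 59.5, 66.4 and 59.1 CPM in degrader 1 to 4, against 90.4, 88.6, 76.3 and 77.1 CPM in DMSO 1 to 4. The 4 degrader libraries were below the 4 DMSO libraries. In edgeR the difference missed the threshold (−0.40 ± 0.11, adjusted p = 0.0862) and passed it without degrader 2 (−0.38, adjusted p = 0.00659). DESeq2 and the edgeR fit on all 16 libraries called it with degrader 2 kept (adjusted p up to 0.0409). In the knockout comparison it had 104, 131, 141 and 139 CPM in p300 KO 1 to 4, against 125, 121, 113 and 126 CPM in NTC 1 to 4. Only p300 KO 1 fell below NTC, the other 3 KO libraries were above all NTC libraries, and the value was 0.09 ± 0.10 with all libraries (adjusted p = 0.546; −0.05 under scaling by total counts) and 0.18 without p300 KO 1 (adjusted p = 0.00472).

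Of the other arrest targets, CCNG1, which encodes cyclin G1, had 153, 173, 177 and 189 CPM in p300 KO 1 to 4, against 155, 152, 144 and 151 CPM in NTC 1 to 4. By edgeR it rose in the KO once p300 KO 1, the lowest of its group, was left out (0.26, adjusted p = 4.73e-05). With p300 KO 1 edgeR gave 0.20 (adjusted p = 0.0950), while DESeq2 called it with all libraries (adjusted p = 0.0364). With the degrader CCNG1 was not called in either setting (−0.33, adjusted p = 0.302; −0.22 and 0.0962 without degrader 2). The polo-like kinase gene PLK3 and ZMAT3, which encodes an RNA-binding zinc finger protein, were called in neither comparison. PLK3 reached 60.8 CPM in degrader 2, against 31.7 to 36.3 CPM in the other degrader libraries, and its log2 fold change was 0.21 with that library and −0.06 without it. In all, 1 of 6 arrest targets was called with the degrader and 3 without degrader 2 (medians −0.06 and −0.14), and 2 of 6 were called in the KO and 4 without p300 KO 1 (medians 0.24 and 0.20). For these and the other role groups, the shares of all genes called to read the counts against are 4.76% with the degrader and 38.5% without degrader 2, and 17.0% in the KO and 40.9% without p300 KO 1.

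**Figure D2:**
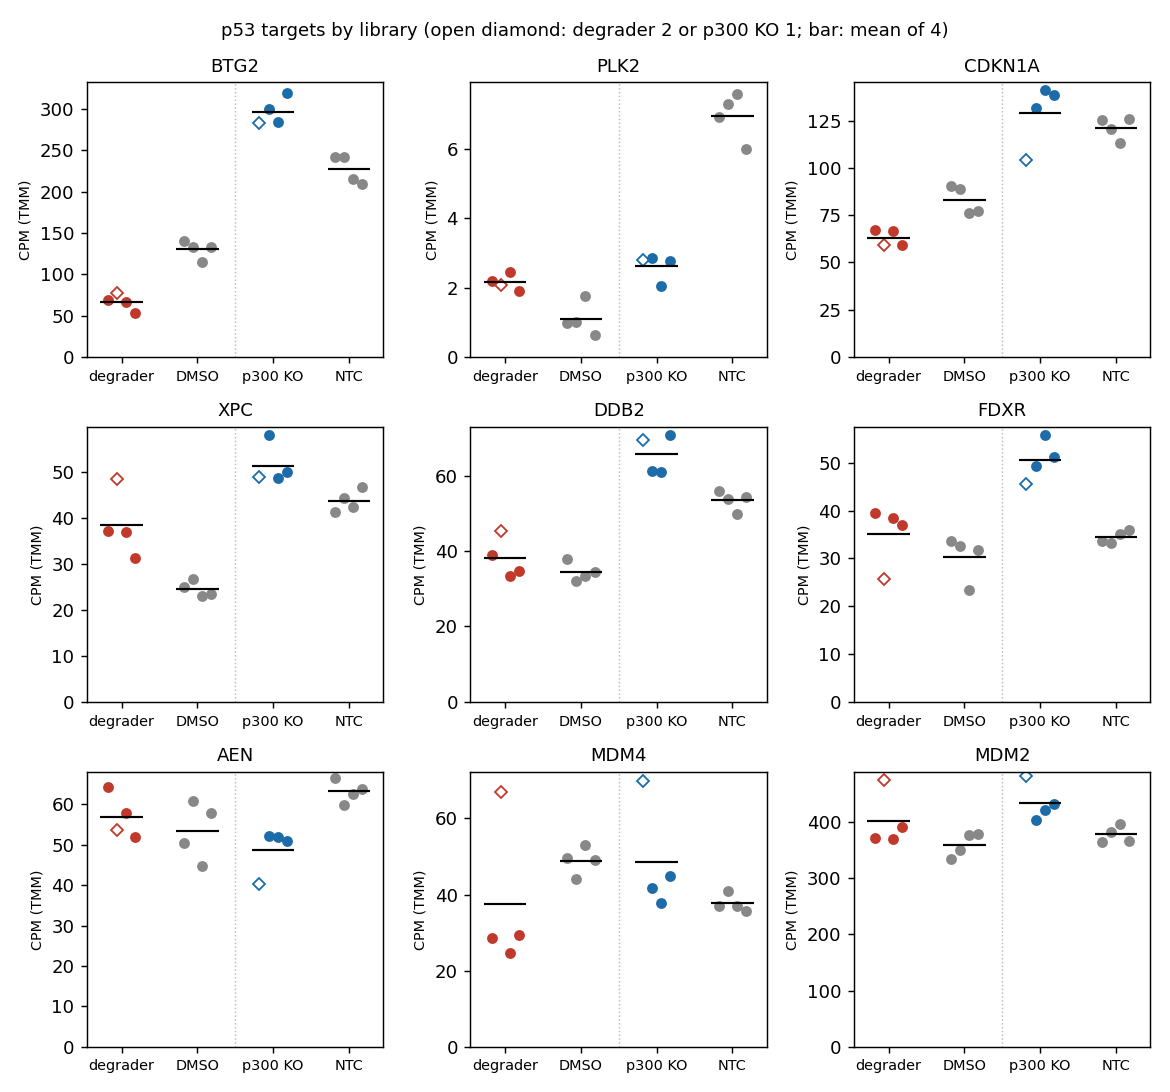
Levels of 9 p53 targets in each library (y axis, TMM-scaled CPM from 0) for degrader, DMSO, p300 KO and NTC; points are libraries, open diamonds degrader 2 or p300 KO 1, and bars the mean of 4. BTG2 with the degrader lies between 53.4 and 77.8 CPM, below all DMSO libraries, and MDM4 shows degrader 2 at 66.9 CPM, apart from the other 3. The 2 experiments were scaled separately.

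Of the repair targets, XPC rose with the degrader and DDB2 and POLK rose in the KO. XPC, the damage sensor of nucleotide excision repair, is annotated at 14145147 to 14178783 of chromosome 3, minus strand (ENSG00000154767). It had 37.1, 48.4, 36.8 and 31.1 CPM in degrader 1 to 4, against 25.0, 26.6, 23.0 and 23.4 CPM in DMSO 1 to 4. Each degrader library was above each DMSO library and degrader 2 was the highest, and XPC rose (0.64 ± 0.14, adjusted p = 0.0402; 0.50 and 0.00112 without degrader 2). The call was lost in the 7 other fits that leave out 1 library, all of which keep degrader 2 (adjusted p from 0.0551 to 0.140). It was lost also with no filter on low counts, with the replicate number as a block and under scaling by total counts (0.44, adjusted p = 0.617). In the KO experiment XPC had 48.7, 57.9, 48.6 and 49.98 CPM in p300 KO 1 to 4, against 41.2, 44.3, 42.3 and 46.5 CPM in NTC 1 to 4. The groups did not overlap, yet edgeR called the difference only without p300 KO 1 (0.26, adjusted p = 6.65e-04). With p300 KO 1 edgeR gave 0.24 (adjusted p = 0.0690), while DESeq2 called it with all libraries (adjusted p = 0.0318). Exons of other genes, among them XPC-AS1 and LSM3 on the opposite strand, cover 30.4% of the XPC exon bases, and the use of strand in counting is not stated.

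DDB2, a sensor of ultraviolet damage in chromatin, is annotated at 47214465 to 47239240 of chromosome 11, plus strand (ENSG00000134574). In the KO experiment it had 69.5, 61.3, 60.9 and 70.9 CPM in p300 KO 1 to 4, against 55.8, 53.9, 49.8 and 54.3 CPM in NTC 1 to 4. The KO libraries were all above the NTC libraries, with p300 KO 1 and 4 the highest, and DDB2 rose (0.29 ± 0.08, adjusted p = 0.0286; 0.27 and 2.52e-04 without p300 KO 1). Leaving out p300 KO 4 or any 1 NTC library ended the call (adjusted p from 0.0616 to 0.0925). So did no filter on low counts, the replicate number as a block and the fit on all 16 libraries. With the degrader DDB2 was not called (0.14, adjusted p = 0.571; −0.04 under scaling by total counts), and degrader 2 was its highest library.

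POLK, a translesion DNA polymerase, is annotated at 75511756 to 75601144 of chromosome 5, plus strand (ENSG00000122008). It had 22.9, 17.4, 14.9 and 18.3 CPM in p300 KO 1 to 4, against 12.7, 13.1, 14.7 and 12.2 CPM in NTC 1 to 4. All KO libraries were above all NTC libraries, although p300 KO 3 and NTC 3 nearly met, and POLK rose (0.47 ± 0.13, adjusted p = 0.0333; 0.35 and 7.28e-04 without p300 KO 1). The call was lost without p300 KO 2, p300 KO 4 or any 1 NTC library (adjusted p from 0.0536 to 0.103). With the replicate number as a block and in the fit on all 16 libraries it was lost too. With the degrader POLK was not called (0.09, adjusted p = 0.845), and degrader 2 stood at 19.1 CPM against 10.2 to 11.9 CPM in the other degrader libraries. The value was −0.13 without degrader 2 (adjusted p = 0.416) and also −0.13 under scaling by total counts (adjusted p = 0.959).

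RRM2B, a subunit of the ribonucleotide reductase that supplies nucleotides for repair, and ASCC3, a helicase of alkylation repair, were called in neither comparison, with or without the libraries that stood apart. Their log2 fold changes were 0.15 and 0.09 with the degrader and 0.16 and 0.12 in the KO. Under scaling by total counts ASCC3 turned to −0.07 and −0.05 and RRM2B in the KO to −0.01. The repair group thus had 1 of 5 genes called higher with the degrader, also without degrader 2 (medians 0.14 and 0.04), and 2 of 5 in the KO, or 3 without p300 KO 1 (medians 0.24 and 0.26).

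Among the 10 death and survival targets edgeR called 0 with the degrader (0 also by an unadjusted p under 0.05), and DESeq2 and limma-voom also called 0 (median −0.01). Without degrader 2, FAS, PHLDA3 and TRIAP1 were called higher. FAS, the death receptor, had 4.45, 0.867, 4.79 and 3.52 CPM in degrader 1 to 4, against 2.81, 2.92, 2.36 and 3.08 CPM in DMSO 1 to 4. Degrader 2 was the lowest library of all and the other 3 degrader libraries were above every DMSO library, so the value was 0.35 ± 0.38 with degrader 2 (adjusted p = 0.651) and 0.59 ± 0.17 without it (adjusted p = 0.0152). PHLDA3, which restrains the survival kinase AKT, had 37.6, 21.3, 36.8 and 34.9 CPM in degrader 1 to 4, against 27.5, 30.2, 25.0 and 28.7 CPM in DMSO 1 to 4. TRIAP1, a mitochondrial protein that restrains apoptosis, had 80.7, 27.0, 74.5 and 70.9 CPM in degrader 1 to 4, against 55.3, 58.7, 58.3 and 61.8 CPM in DMSO 1 to 4. Both showed the same arrangement as FAS, with degrader 2 below all DMSO libraries and the other 3 above. Without degrader 2 the log2 fold change was 0.38 for PHLDA3 (adjusted p = 0.00505) and 0.36 for TRIAP1 (adjusted p = 0.00417), against 0.24 (adjusted p = 0.490) and 0.12 (adjusted p = 0.858) with it. With all libraries TRIAP1 turned to −0.0039 in limma-voom.

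In the KO, 1 of the 10, AEN, was called, and it was lower (median of the group 0.05). AEN encodes an exonuclease that promotes apoptosis and is annotated at 88621296 to 88632282 of chromosome 15, plus strand (ENSG00000181026). It had 40.2, 52.2, 51.9 and 50.8 CPM in p300 KO 1 to 4, against 66.7, 59.8, 62.5 and 63.9 CPM in NTC 1 to 4. All KO libraries were below all NTC libraries and p300 KO 1 was the lowest, and AEN fell (−0.37 ± 0.09, adjusted p = 0.0237; −0.29 and 2.76e-05 without p300 KO 1). The call was lost when any 1 NTC library was left out (adjusted p from 0.0522 to 0.0782). It was lost also under scaling by total counts (−0.51, adjusted p = 0.233) and with no filter on low counts. The same held with the replicate number as a block and in the fit on all 16 libraries.

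Leaving out p300 KO 1 added 4 calls in this group, all higher, for a median of 0.14. FAS had 2.91, 5.30, 7.16 and 7.94 CPM in p300 KO 1 to 4, against 4.51, 5.59, 4.19 and 3.86 CPM in NTC 1 to 4. TP53INP1, a stress protein of autophagy and cell death, had 31.8, 46.6, 42.1 and 53.4 CPM in p300 KO 1 to 4, against 31.6, 38.6, 36.3 and 31.6 CPM in NTC 1 to 4. TNFRSF10B, a receptor for the death ligand TRAIL, had 29.4, 38.2, 39.0 and 41.3 CPM in p300 KO 1 to 4, against 32.8, 32.3, 30.3 and 32.3 CPM in NTC 1 to 4. In FAS and TNFRSF10B, p300 KO 1 lay below all 4 NTC libraries, and in TP53INP1 among the lowest of them, while p300 KO 2, 3 and 4 lay above all NTC libraries except for FAS in p300 KO 2, which lay below NTC 2. The log2 fold change without p300 KO 1 was 0.58 for FAS (adjusted p = 4.84e-04), 0.45 for TP53INP1 (adjusted p = 7.35e-07), 0.31 for TNFRSF10B (adjusted p = 6.64e-05) and 0.20 for PHLDA3 (adjusted p = 0.00766). With p300 KO 1 the same genes had 0.39, 0.34, 0.22 and 0.09, with adjusted p of 0.314, 0.135, 0.166 and 0.637. PHLDA3 turned to −0.04 under scaling by total counts.

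The remaining 4 death and survival targets were called in neither comparison in either setting. They are TNFRSF10A, the other TRAIL receptor that signals death, EDA2R, a receptor for ectodysplasin, TP53I3, a quinone oxidoreductase, and RPS27L, a relative of a ribosomal protein. With the degrader their log2 fold changes were −0.12, −0.22, −0.34 and −0.31, and in the KO −0.02, 0.01, −0.12 and 0.25. The KO values of TNFRSF10A and EDA2R are near 0 and turned sign in other settings.

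Of the 4 feedback targets, edgeR called 0 with the degrader (1 by an unadjusted p under 0.05), and DESeq2 and limma-voom also called 0. Without degrader 2, MDM4 was called lower and PPM1D higher. MDM4, an inhibitor of p53 related to MDM2, is annotated at 204516379 to 204558120 of chromosome 1, plus strand (ENSG00000198625). It had 28.6, 66.9, 24.7 and 29.4 CPM in degrader 1 to 4, against 49.5, 44.1, 52.996 and 49.0 CPM in DMSO 1 to 4. Degrader 2 was the highest library and the other 3 degrader libraries were the lowest, so the value was −0.40 ± 0.30 with degrader 2 (adjusted p = 0.486) and −0.83 ± 0.09 without it (adjusted p = 1.79e-05). On the KO side MDM4 had 69.9, 41.8, 37.8 and 45.0 CPM in p300 KO 1 to 4, against 37.1, 41.0, 37.1 and 35.7 CPM in NTC 1 to 4. Again the library rich in mitochondrial RNA, p300 KO 1, was the highest, and MDM4 was not called with it (0.36, adjusted p = 0.175) or without it (0.14, 0.0788).

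PPM1D, the phosphatase WIP1 that dephosphorylates p53 and its activating kinases, had 16.8, 10.4, 17.1 and 16.4 CPM in degrader 1 to 4, against 11.5, 13.2, 8.67 and 11.2 CPM in DMSO 1 to 4. Degrader 2 lay among the DMSO libraries and the other 3 above them (0.46, adjusted p = 0.207; 0.58 and 0.00276 without degrader 2). In the KO it was not called (−0.08, adjusted p = 0.659; 0.03 and 0.803 without p300 KO 1). FBXO22, a substrate receptor of a ubiquitin ligase, is annotated at 75903859 to 75942510 of chromosome 15, plus strand (ENSG00000167196) and had 58.2, 48.4, 49.6 and 45.1 CPM in p300 KO 1 to 4, against 41.0, 38.6, 41.0 and 42.7 CPM in NTC 1 to 4. The KO libraries were all above the NTC libraries and FBXO22 rose (0.30 ± 0.09, adjusted p = 0.0410), also without p300 KO 1 (0.22, adjusted p = 0.00184). That call was lost without p300 KO 2, p300 KO 3 or any 1 NTC library (adjusted p from 0.0683 to 0.119). It was lost also with no filter on low counts, with the replicate number as a block and in the fit on all 16 libraries. With the degrader FBXO22 had 52.9 to 91.7 CPM against 43.2 to 51.8 CPM in DMSO and was not called (0.39, adjusted p = 0.283). Exons of NRG4 on the opposite strand overlap it, with 16.2% of its exon bases shared.

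MDM2, the ubiquitin ligase that degrades p53, is annotated at 68808176 to 68850686 of chromosome 12, plus strand (ENSG00000135679). It had 372, 473, 368 and 391 CPM in degrader 1 to 4, against 334, 349, 376 and 378 CPM in DMSO 1 to 4. The groups overlapped, and MDM2 was not called with degrader 2 (0.16 ± 0.13, adjusted p = 0.532; −0.02 under scaling by total counts) or without it (0.06, 0.574). In the KO experiment it had 480.5, 403, 420.5 and 430.5 CPM in p300 KO 1 to 4, against 364, 382, 396 and 366 CPM in NTC 1 to 4. Each KO library was above each NTC library, and edgeR called the difference only without p300 KO 1 (0.15, adjusted p = 0.0135). With p300 KO 1 edgeR gave 0.20 (adjusted p = 0.0971), while DESeq2 called it with all libraries (adjusted p = 0.0250). Together 1 of 4 feedback targets was called in the KO, and 2 without p300 KO 1 (medians 0.25 and 0.14).

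Of the 6 metabolic and secreted targets, FDXR rose and CMBL fell in the KO, and no left-out library ended either call. With the degrader 3 were tested and edgeR called 0 (0 also by an unadjusted p under 0.05), as did DESeq2 and limma-voom; without degrader 2, 2 were called higher. FDXR encodes the reductase that passes electrons to mitochondrial ferredoxins and is annotated at 74862497 to 74873031 of chromosome 17, minus strand (ENSG00000161513). In the other experiment it had 45.6, 49.3, 55.8 and 51.3 CPM in p300 KO 1 to 4, against 33.6, 33.2, 35.1 and 35.9 CPM in NTC 1 to 4. All KO libraries were well above all NTC libraries and FDXR rose (0.55 ± 0.08, adjusted p = 0.00171; 0.59 and 2.79e-11 without p300 KO 1); under scaling by total counts the value was 0.40 and not called (adjusted p = 0.316). With the degrader it had 39.4, 25.7, 38.5 and 36.9 CPM in degrader 1 to 4, against 33.7, 32.5, 23.4 and 31.8 CPM in DMSO 1 to 4. Degrader 2 lay low, and the other 3 were above every DMSO library (0.22, adjusted p = 0.517; 0.32 and 0.0377 without degrader 2).

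TIGAR, a phosphatase that limits glycolysis, had 18.5, 6.76, 17.4 and 14.3 CPM in degrader 1 to 4, against 12.1, 12.2, 11.2 and 11.8 CPM in DMSO 1 to 4. Degrader 2 was below all DMSO libraries and the other 3 above them, and TIGAR was called higher without degrader 2 (0.49, adjusted p = 0.00295; 0.29 and 0.560 with it). In the KO the same pattern held for p300 KO 1 (0.19, adjusted p = 0.0455 without it; 0.08 and 0.663 with it, and −0.05 under scaling by total counts). SUSD6, a membrane protein with a sushi domain, was called in neither comparison (−0.31 with the degrader and −0.01 in the KO, and −0.23 and 0.07 without degrader 2 or p300 KO 1).

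The last 3 targets were close to absent. CMBL, which encodes a carboxymethylenebutenolidase homologue, had 0, 1, 3 and 2 counts in p300 KO 1 to 4, against 14, 28, 12 and 17 counts in NTC 1 to 4. No KO library held more than 3 counts and no NTC library fewer than 12, and CMBL fell (−3.22 ± 0.54, adjusted p = 0.00458; −3.02 and 1.08e-05 without p300 KO 1). Per total count the KO had 0.0929 of the NTC level (95% exact binomial interval 0.0330 to 0.212, counting error only). With the degrader CMBL had 0, 2, 6 and 3 counts, against 10, 1, 2 and 7 in DMSO 1 to 4, too few for the test. GDF15, a secreted stress cytokine, had 0 to 6 counts in the degrader and 2 to 3 in the DMSO libraries, and 4 to 11 in the KO and 8 to 14 in the NTC libraries. SPATA18, a factor of mitochondrial quality control, had at most 2 counts in any library. By total counts, before TMM scaling, 0 counts allow up to 0.130 to 0.238 CPM depending on depth. TMM scaling takes degrader 2 as 5.77 M counts and p300 KO 1 as 10.3 M, so on that scale their limits are higher.

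**Figure D3:**
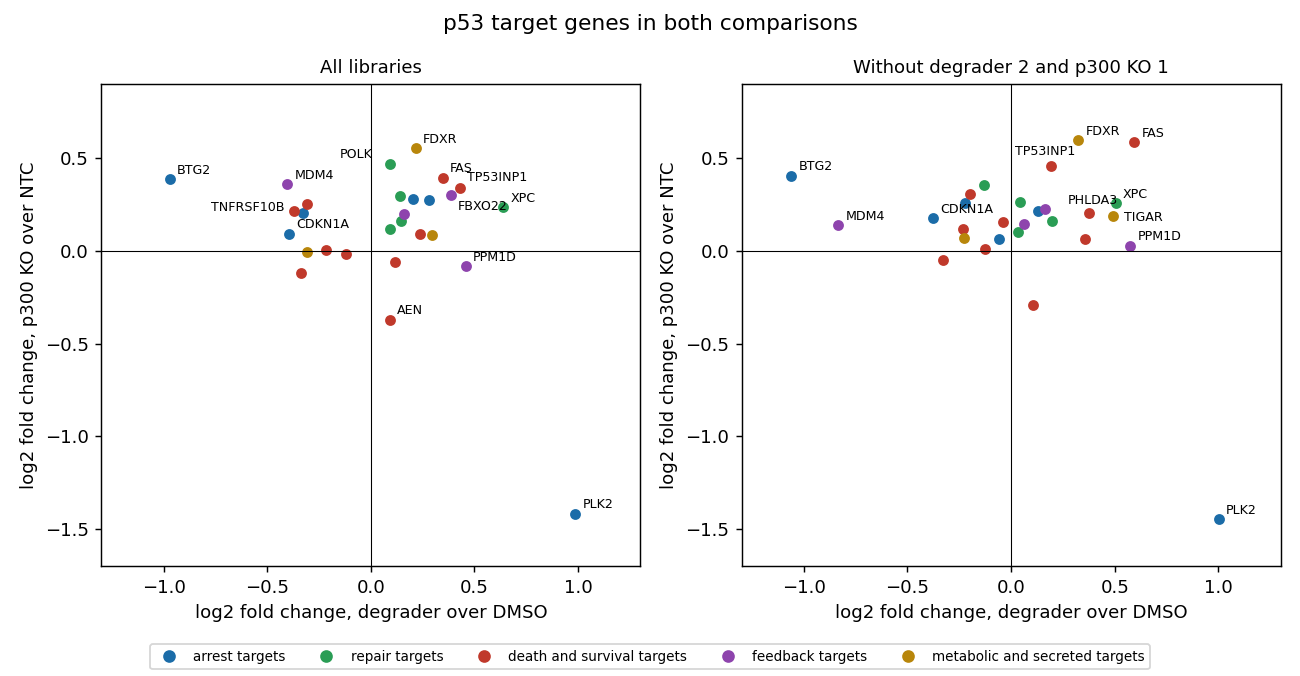
Log2 fold change with the degrader over DMSO (x axis) against that in the p300 KO over NTC (y axis) for the 28 p53 targets tested in both, with all libraries (left) and without degrader 2 and p300 KO 1 (right); colours give the role. BTG2 lies in the upper left and PLK2 in the lower right in both panels. Genes with a change over 0.36 in size on either axis are named.

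The difference between the experiments was tested for each target as the KO effect minus the degrader effect, in a fit on all 16 libraries. Of 29 targets tested, BTG2 was called higher (1.32 ± 0.17, adjusted p = 2.25e-04) and PLK2 lower (−2.45 ± 0.32, adjusted p = 2.76e-04), where 6.58% of all 18068 genes were called, 2.82% higher and 3.76% lower. Both remained without degrader 2 and p300 KO 1 (1.44 and −2.48). In that setting 10 of 30 targets were called, where 32.0% of all genes were, so the share was near the background. The 6 with the higher KO effect were BTG2, CDKN1A (0.53, adjusted p = 8.81e-04), CCNG1 (0.45), POLK (0.45), TNFRSF10B (0.48) and MDM4 (0.94, adjusted p = 1.05e-06). The 4 with the lower KO effect were PLK2, AEN (−0.42), TRIAP1 (−0.32) and PPM1D (−0.57, adjusted p = 0.00330). The experiments also differ in how p300 was removed and in their control cells, and these cannot be told apart. The call of BTG2 in this difference was lost under scaling by total counts (1.37, adjusted p = 0.0670).

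With all libraries, BTG2 alone of the 28 targets tested in both experiments was called in both, lower with the degrader and higher in the KO. That was 1 of 28, where 1.46% of the 15443 genes tested in both were called in both. Without degrader 2 and p300 KO 1, 8 of 28 were called in both, where 17.5% of 15782 genes were, 6.18% higher in both and 5.66% in opposite directions. XPC, FAS, PHLDA3, TIGAR and FDXR were higher in both, CDKN1A and BTG2 were lower with the degrader and higher in the KO, and PLK2 was higher with the degrader and lower in the KO.

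The 2 libraries rich in mitochondrial RNA stood at the edge of their groups in many targets, as they did in most genes at large. Degrader 2 was the highest of its group in 11 of 28 targets and the lowest in 12, where over all genes it was highest in 45.2% and lowest in 44.3%. In p300 KO 1 the counts were 7 highest and 16 lowest of 28, against 43.8% and 40.2% over all genes. FBXO22, MDM2, MDM4, PLK3, POLK and ZMAT3 were highest in both libraries. Another 10 were lowest in both: CCNG1, EDA2R, FAS, FDXR, PHLDA3, PPM1D, SUSD6, TIGAR, TNFRSF10B and TRIAP1. The share of all genes at the same edge in both libraries was not counted. Values of RNA quality were not used here, and the part of the mitochondrial share in these levels was not tested.

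Of the coactivator genes and other regulators, CREBBP (0.32 ± 0.06, adjusted p = 0.00850) and SIRT1, a deacetylase of p53 (0.53 ± 0.09, adjusted p = 0.00478), rose in the KO and EP300 fell (−1.25 ± 0.11, adjusted p = 2.20e-04). Without p300 KO 1 the values were 0.31, 0.51 and −1.37, all called. Under scaling by total counts the calls of CREBBP (0.15, adjusted p = 0.701) and SIRT1 (0.36, adjusted p = 0.289) were lost, and CREBBP lost its call also with no filter on low counts and in the fit on all 16 libraries, while EP300 kept its call (−1.45). With the degrader EP300 and CREBBP had 0.79 (adjusted p = 0.249) and 0.71 (adjusted p = 0.101). Degrader 2 had 141 CPM of EP300 against 48.1 to 49.9 CPM in the other degrader libraries. Without degrader 2 the values of EP300 and CREBBP were 0.24 (adjusted p = 0.0531) and 0.44 (adjusted p = 0.00187), so that edgeR called CREBBP. DESeq2 and the edgeR fit on all 16 libraries called CREBBP with degrader 2 kept (adjusted p up to 0.0224).

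Another 28 known p53 targets were counted beside the 31. With the degrader 24 were tested and VWCE, a secreted protein with von Willebrand factor domains, fell (−0.87 ± 0.13, adjusted p = 0.0100), with a median of 0.14 for the list. VWCE stood at −0.91 without degrader 2 and lost its call under scaling by total counts (−1.01, adjusted p = 0.129) and with the replicate block. Without degrader 2, 7 of 25 were higher and 3 lower, 40.0% called where 38.5% of all genes were. In the KO 25 were tested. POLH, a translesion polymerase (0.56 ± 0.09, adjusted p = 0.00354), APAF1, the core of the apoptosome (0.51 ± 0.10, adjusted p = 0.00827), and TNFRSF10C, a decoy TRAIL receptor (0.61 ± 0.17, adjusted p = 0.0336), rose, and RAP2B, a small GTPase, fell (−0.24 ± 0.07, adjusted p = 0.0493). Those 4 of 25 called stand beside 17.0% of all genes. The median was 0.07, and without p300 KO 1, 9 were higher and 4 lower, 52.0% called where 40.9% of all genes were. Without p300 KO 1 the values were 0.56 for POLH, 0.53 for APAF1, 0.42 for TNFRSF10C and −0.29 for RAP2B, all called. All 4 lost their calls under scaling by total counts (adjusted p of 0.278, 0.374, 0.126 and 0.169) and in the fit on all 16 libraries. TNFRSF10C lost its call without any 1 NTC library (adjusted p from 0.0682 to 0.0992), and RAP2B in the 7 fits that leave out 1 library other than p300 KO 1 (from 0.0845 to 0.138).

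Of 12 cell cycle genes that p53 is known to hold down through p21 and the DREAM complex, those called were higher in both experiments. With the degrader 1 of 12 was called, CDC20, which switches on the ubiquitin ligase of anaphase (0.53 ± 0.11, adjusted p = 0.0348; list median 0.33), and 10 were higher and 0 lower without degrader 2 (median 0.40). Over all genes tested, 4.76% were called with the degrader, and 18.2% were called higher and 20.3% lower without degrader 2. The medians over all genes were 0.05 and −0.04. CDC20 lost its call in the 7 fits that leave out 1 other library (adjusted p from 0.0613 to 0.146) and under scaling by total counts (0.41, adjusted p = 0.811). It lost the call also with no filter on low counts and with the replicate block. In the KO, CDK1, the kinase of mitotic entry (0.71 ± 0.10, adjusted p = 0.00177), its activating phosphatase gene CDC25C (0.65 ± 0.10, adjusted p = 0.00317), CDC20 (0.34 ± 0.06, adjusted p = 0.00516) and the mitotic kinase gene AURKA (0.30 ± 0.07, adjusted p = 0.0161) rose. The list median was 0.18, and 11 were higher and 0 lower without p300 KO 1 (median 0.24). Of all genes tested, 17.0% were called in the KO, and 19.1% were called higher and 21.8% lower without p300 KO 1. Without p300 KO 1, CDK1 had 0.61, CDC25C 0.57, CDC20 0.33 and AURKA 0.34. Under scaling by total counts all 4 calls were lost, with CDK1 at 0.51 (adjusted p = 0.0660), CDC25C at 0.46 (0.110), CDC20 at 0.17 (0.687) and AURKA at 0.15 (0.750). AURKA also lost its call without NTC 1, 2 or 3 (adjusted p from 0.0522 to 0.0624). The KO calls of CDC20 and AURKA were lost too with no filter on low counts, with the replicate block and in the fit on all 16 libraries.

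**Figure D4:**
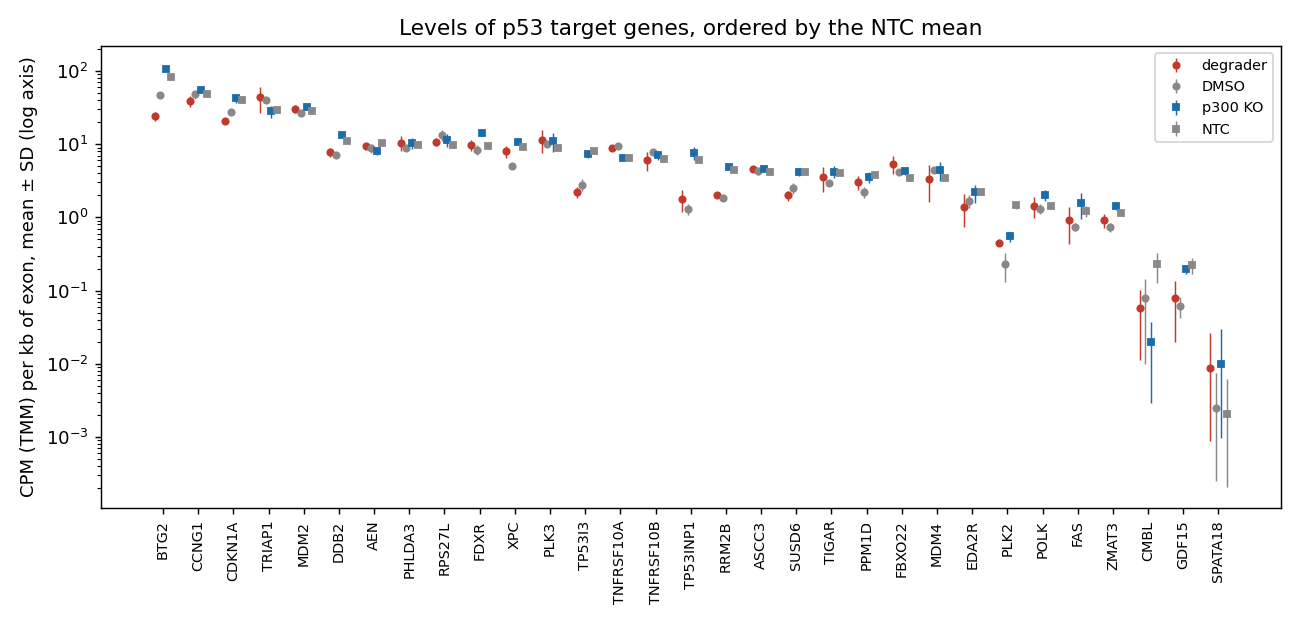
Levels of the 31 p53 targets per kilobase of exon (log y axis, TMM-scaled CPM per kb), ordered by the NTC mean; circles are degrader and DMSO, squares p300 KO and NTC, and bars ± SD of 4 libraries, with lower bars shortened where they would pass 0. BTG2, CCNG1 and CDKN1A lead in NTC, and CMBL, GDF15 and SPATA18 lie lowest.

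Per kilobase of exon the targets spanned a wide range. In DMSO, CCNG1 (38.6 ± 6.41 CPM per kb with the degrader and 48.5 ± 6.75 CPM per kb in DMSO) and BTG2 (24.2 ± 3.66 CPM per kb with the degrader and 47.3 ± 4.01 CPM per kb in DMSO) led, and in DMSO they did not differ beyond their SD (n = 4). TRIAP1 (43.9 ± 17.0 CPM per kb with the degrader and 40.6 ± 1.83 CPM per kb in DMSO) came next. In NTC, BTG2 stood first (108 ± 6.14 CPM per kb in the KO and 82.5 ± 6.35 CPM per kb in NTC), clear of CCNG1 (55.9 ± 4.74 in the KO and 48.6 ± 1.503 in NTC) and CDKN1A (42.3 ± 5.55 in the KO and 39.7 ± 1.94 in NTC). MDM2 was the fifth in both control groups, at 27.1 ± 1.61 CPM per kb in DMSO and 28.4 ± 1.14 CPM per kb in NTC. PLK2 was among the lowest of the tested genes, at 0.452 ± 0.0488 CPM per kb with the degrader and 0.229 ± 0.0991 CPM per kb in DMSO. With the degrader, the ranges of the groups did not overlap in 7 of 28 tested targets (3 above and 4 below DMSO), and in 15 without degrader 2 (10 and 5). Of all genes tested, 16.8% had ranges that did not overlap (7.60% above and 9.24% below), and 45.2% without degrader 2 (23.0% and 22.2%). In the KO they did not overlap in 10 of 29 (7 above and 3 below NTC), and in 16 without p300 KO 1 (13 and 3), where 28.6% of all genes did not (12.5% above and 16.1% below), and 42.3% without p300 KO 1 (20.3% and 22.0%).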

How the data were processed

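The authors deposited whole-number counts per gene, 1 table for each of 16 libraries, with a gene length column whose unit is other than a count. The submitters' processing notes name GRCh38, DESeq2 1.16.1, featureCounts (Subread 1.5.2), STAR 2.5.2b and Trimmomatic 0.36, with no annotation release or strand setting. Of the 57500 genes, 56898 matched GENCODE 29 by identifier, and 96.3% of those had the same position. Exon overlaps were computed from the exon positions given in the deposited counts, and promoters were taken from RefSeq (GRCh38.p14).

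Counts were tested with edgeR 4.0.16 in R 4.3.3: filterByExpr, TMM scaling and the quasi-likelihood test, with each comparison fitted on its own 8 libraries and a Benjamini-Hochberg adjusted p under 0.05 over all genes tested. The difference between experiments used all 16 libraries. SE is the absolute log2 fold change divided by the square root of F. The procedure was tested on simulated counts. DESeq2 1.42.0 and limma-voom (limma 3.58.1) were alternatives. Depth was 12.6 M to 23.1 M counts. A count of 0 allows up to 3 counts, which equal 0.130 to 0.238 CPM by total counts, before TMM scaling. Intervals and limits cover counting error only. No pair of libraries was a duplicate. The 31 targets, the role groups and the other lists were chosen with earlier results of these data known. All 31 targets could be named, as could EP300 and CREBBP; of the other lists, up to 4 genes per list and comparison, those with the smallest p. The counts of 1 further list, of regulators, are not reported here.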

Additional observations from a re-analysis of the deposited data

Results flagged for a closer look

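In 21 of 128 groups of 4 libraries, 1 library lay apart from the other 3 by more than Dixon's 95% limit for 4 values (its gap to the nearest library over the range of the group); chance gives about 1 in 20 such groups. The mitochondrial share of counts was one of these measures, with a ratio of 0.983 for degrader 2 and 0.970 for p300 KO 1. Of the p53 targets, 8 passed the limit through degrader 2. High in degrader 2 were PLK3 (ratio 0.843; 60.8 CPM against 31.7 to 36.3 CPM in the other degrader libraries), MDM4 (0.890; 66.9 CPM against 24.7 to 29.4 CPM), FBXO22 (0.879; 91.7 CPM against 52.9 to 57.6 CPM) and SPATA18 (1; 0.173 CPM against 0). Low in degrader 2 were CCNG1 (0.885; 89.97 CPM against 127 to 132 CPM), RRM2B (0.881; 9.53 CPM against 11.6 to 11.9 CPM), PHLDA3 (0.835; 21.3 CPM against 34.9 to 37.6 CPM) and PPM1D (0.893; 10.4 CPM against 16.4 to 17.1 CPM).

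Through p300 KO 1, 4 targets passed it. AEN (0.889; 40.2 CPM against 50.8 to 52.2 CPM in the other KO libraries), PHLDA3 (0.886; 24.03 CPM against 34.9 to 36.4 CPM) and SUSD6 (0.848; 19.8 CPM against 25.1 to 26.1 CPM) were low, and SPATA18 (1; 0.194 CPM against 0) was high. In the other KO libraries, PLK2 was low in p300 KO 3 (0.904; 2.04 CPM against 2.77 to 2.85 CPM) and XPC high in p300 KO 2 (0.853; 57.9 CPM against 48.6 to 49.98 CPM). In DMSO, FBXO22 was low in DMSO 2 (0.835; 43.2 CPM against 50.4 to 51.8 CPM), SUSD6 low in DMSO 3 (0.89996; 10.8 CPM against 15.6 to 16.1 CPM) and SPATA18 high in DMSO 4 (1; 0.0489 CPM against 0). In NTC, TIGAR was low in NTC 3 (0.877; 14.7 CPM against 16.4 to 16.7 CPM) and SPATA18 high in NTC 4 (1; 0.0411 CPM against 0). Every SPATA18 value above 0 rests on 1 or 2 counts.

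The effects of the p300 KO and of the degrader differed in BTG2 and PLK2 by the test of the difference itself. The KO effect minus the degrader effect was 1.32 on the log2 scale in BTG2 and −2.45 in PLK2 (edgeR adjusted p = 2.25e-04 and 2.76e-04), and both were called in each of the 16 fits that leave out 1 library.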

How the results depend on the processing

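Leaving out 1 library at a time gave 197 to 6278 genes called with the degrader (755 with all), with 0 to 8 targets higher and 1 to 3 lower. In the KO it gave 1542 to 7246 genes (2944 with all), with 2 to 14 targets higher and 2 to 3 lower. In the difference 2 to 6 targets were called, and 10 without degrader 2 and p300 KO 1 together. The most genes and the most targets higher came without degrader 2 in the degrader comparison and without p300 KO 1 in the KO comparison, and the most targets in the difference without degrader 2. Scaling by total counts gave 164 genes with 0 targets higher and 0 lower with the degrader, 1265 genes with 0 targets higher in the KO, and 1 target in the difference. With no filter on low counts 394 genes and 0 targets higher were called with the degrader, and 2 targets higher in the KO. DESeq2 called 1796 genes with 2 targets higher and 2 lower with the degrader, and 8 targets higher in the KO. A fit on all 16 libraries called 2294 genes with 2 targets higher and 2 lower with the degrader, and 1484 genes with 1 target higher in the KO. The cause of these moves was not tested.

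Same-numbered libraries did not deviate together (correlations −0.02, −0.41, −0.44 and 0.13 for degrader and DMSO, −0.17, 0.02, −0.16 and −0.01 for KO and NTC), so the numbers were not taken as pairs. With the replicate number as a block, 24 genes with 0 targets higher and 0 lower were called with the degrader, and 1304 genes with 1 target higher in the KO.

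Some small values of single targets turned sign. Scaling by total counts turned PLK3 (−0.055), DDB2 (−0.036), POLK (−0.13), ASCC3 (−0.066), AEN (−0.034) and MDM2 (−0.020) with the degrader, and CDKN1A (−0.048), RRM2B (−0.0054), ASCC3 (−0.055), EDA2R (−0.11), PHLDA3 (−0.039) and TIGAR (−0.050) in the KO. EDA2R in the KO also turned with mitochondrial genes removed (−0.0015), with no filter (−0.016), with the replicate block (−0.030) and with all 16 libraries (−0.042). SUSD6 in the KO turned in DESeq2 (0.0041) and limma-voom (0.0023), and TRIAP1 with the degrader in limma-voom (−0.0039). In the difference, ZMAT3 turned with total counts (0.0039), in limma-voom (0.0073) and without both libraries (0.06), ASCC3 with total counts (0.010) and without both (0.041), TP53INP1 with total counts (0.0092) and without both (0.23), FBXO22 without both (0.03), FAS with the replicate block (0.025), and MDM2 with DESeq2's size factors (−0.028) and in DESeq2 (−0.026). Leaving out 1 library at a time, values ran from −0.061 to 0.31 in PLK3 and −0.13 to 0.20 in POLK with the degrader. In the KO they ran from −0.042 to 0.019 in TNFRSF10A, −0.11 to 0.16 in EDA2R, −0.14 to 0.062 in TRIAP1, −0.14 to 0.026 in PPM1D and −0.045 to 0.069 in SUSD6. In the difference they ran from −0.12 to 0.25 in PLK3, −0.11 to 0.077 in ZMAT3, −0.10 to 0.015 in RRM2B, −0.091 to 0.065 in ASCC3, −0.25 to 0.18 in FAS, −0.0011 to 0.42 in EDA2R, −0.23 to 0.086 in TP53INP1, −0.029 to 0.065 in MDM2 and −0.19 to 0.063 in FBXO22.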

Other observations

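The control groups of the experiments, DMSO and NTC, differed in the level of some p53 targets. TP53I3 stood at 2.80 ± 0.499 CPM per kb of exon in DMSO and 8.06 ± 0.473 CPM per kb in NTC (SD, n = 4 each). TP53INP1 stood at 1.296 ± 0.220 CPM per kb in DMSO and 6.08 ± 0.623 CPM per kb in NTC, and PLK2 at 0.229 ± 0.0991 CPM per kb in DMSO and 1.46 ± 0.144 CPM per kb in NTC. The experiments were scaled separately and this difference was not tested. The DMSO vehicle, the NTC treatment and the 2 experiments as such cannot be told apart here.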
